A study of Homo sapiens with 9 samples.

Results

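SMADs and the proteins that restrain them were followed in PANC-1 cells, a line established from a human pancreatic carcinoma, after a miR-520f mimic had been introduced. The set held 10 genes, SMAD2, SMAD3, SMAD4, SMAD7, SKI, SKIL, SMURF1, SMURF2, TGIF1 and TGIF2, out of 14232 genes tested on 9 arrays. They were listed by symbol, and for each the probe set with a single gene symbol and the highest mean over the 9 arrays was taken. All 10 had such a probe set. A miR-520f mimic at 20 nM, carried by the lipid RNAiMAX, defined the miR-520f cells. The negative control cells were given a control mimic at 20 nM in the same lipid, and the non-transfected cells had the lipid alone. RNA was taken at 72 h, with 3 biological replicates in each group. All groups share the lipid and the line, and nothing in the labels says what kept the cultures of a group apart. The p-values therefore cover the spread among these arrays, whose titles call them biological replicates, and how independent their cultures were is not known. The comparisons addressed which genes miR-520f changed relative to each control.

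TGF-beta receptors phosphorylate SMAD2 and SMAD3, which join SMAD4, enter the nucleus and bind DNA at short motifs such as CAGAC. SKI and SKIL (SnoN) bind these complexes and recruit corepressors, and the homeodomain proteins TGIF1 and TGIF2 repress the same genes with histone deacetylases. SMAD7 blocks the receptors from inside the cell, and SMURF1 and SMURF2 are ubiquitin ligases that SMAD7 brings to the receptors and that also act on SMADs and SKIL. PANC-1 is known as a pancreatic line that keeps SMAD4, a gene often lost in this cancer.

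The mimic copies a short RNA whose pairing rests mainly on its seed, bases 2 to 8. The labels name miR-520f without an arm, so both mature arms are shown, with 3 relatives of the 3p arm for comparison and the seed of each in capitals. The sequences are those of RefSeq (GRCh38.p14), and miR-520f lies on the plus strand at chr19:53682213-53682234 for the 3p arm and chr19:53682173-53682194 for the 5p arm.
hsa-miR-520f-3p: aAGUGCUUccuuuuagaggguu
hsa-miR-520f-5p: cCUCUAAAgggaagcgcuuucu
hsa-miR-302a-3p: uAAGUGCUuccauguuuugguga
hsa-miR-373-3p: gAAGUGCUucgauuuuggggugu
hsa-miR-520c-3p: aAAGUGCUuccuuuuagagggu
Among 2370 mature names in the table, 1 (miR-520f-3p itself) carries AGUGCUU at bases 2 to 8. The same letters stand at bases 3 to 9 in 11 others, the 3 relatives shown among them, so the seeds of the 3 relatives are shifted by a single base against that of miR-520f-3p.

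The values are RMA log2 intensities, with array medians of 4.22 to 4.34 over 22011 probe sets. The number of arrays limits the precision. Negative control replicate 1 was the array least like the rest of its group (root mean square deviation 0.169, and 0.0698 to 0.131 on the other 8 arrays). For the members and the other genes refitted under the alternatives, calls that change without it are given with and without it. Of 6 epithelial markers, 5 (KRT8, KRT18, KRT19, EPCAM and CDH1) lay above the median gene mean of 4.53, and KRT7 lay below it. Of 16 measured fibroblast, endothelial and immune markers, COL1A1 and CD68 lay above that median and the rest below it. CD68, which encodes a lysosomal protein, was lower in miR-520f cells (log2 differences of -0.90 against negative control and -1.31 against non-transfected cells). Between the controls CD68 differed by -0.41, lower in the negative control (limma adjusted p = 0.0258). The summed log2 level of the 5 immune markers ran from 20.1 to 20.9 in miR-520f, from 21.5 to 21.9 in negative control and from 21.8 to 22.3 in non-transfected cells. CD68 makes up most of this difference. PTPRC, CD3E, CD14 and LYZ were not called against either control. They differed by -0.095 to -0.0011 against the negative control and by -0.084 to -0.028 against non-transfected cells. That of the 6 epithelial markers ran from 48.0 to 48.3 in miR-520f, from 45.3 to 45.9 in negative control and from 45.7 to 46.4 in non-transfected cells. Of the epithelial markers, EPCAM and CDH1 rose and KRT19 fell with miR-520f against both controls. The part of these marker differences in the results below was not tested.

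A gene was called at an adjusted p under 0.05 (limma fit over all 9 arrays, Benjamini-Hochberg adjustment over 14232 genes). Against the negative control 4 of the 10 members rose and 1 fell with miR-520f, where 28.1% of all genes were called (15.4% higher and 12.6% lower). Against non-transfected cells 4 rose and 1 fell, where 27.6% of all genes were called (14.5% higher and 13.1% lower). The median log2 difference of the members was 0.17 against the negative control and 0.15 against non-transfected cells, beside -0.031 and -0.026 over all genes. Both comparisons use the same miR-520f arrays. The members were chosen with earlier results of these data known, so their counts do not test an excess over such shares. SKI, SKIL and TGIF2 rose against both controls, where 18.0% of all genes were called with the same sign (9.37% higher and 8.61% lower). These shares include dim genes, and apart from SMAD7 the members had means at the 68.5 to 97.8 percentile of all genes. With genes of a mean under 3.26 left out, 4063 genes were still called against the negative control and 3923 against non-transfected cells. Against both controls 2594 were called with the same sign. The shares among brighter genes are therefore higher. By limma 0 members fell against both, 1 (SMAD2) did so at an unadjusted p under 0.05, and SMAD2 was called lower against both under 6 of 18 alternatives. The negative control itself differed from non-transfected cells in 2 members, SMAD3 (lower) and SMURF2 (higher), where 15.3% of all genes were called (7% higher and 8.28% lower). The count against the negative control dropped to 3 without miR-520f replicate 1 or without negative control replicate 2. Without negative control replicate 1 the count was 6 against the negative control and 6 against non-transfected cells. The count between the controls dropped to 1 (SMAD3) without negative control replicate 2 or 3, or without any of the 3 non-transfected replicates, and rose to 3 without negative control replicate 1.

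**Figure D1:**
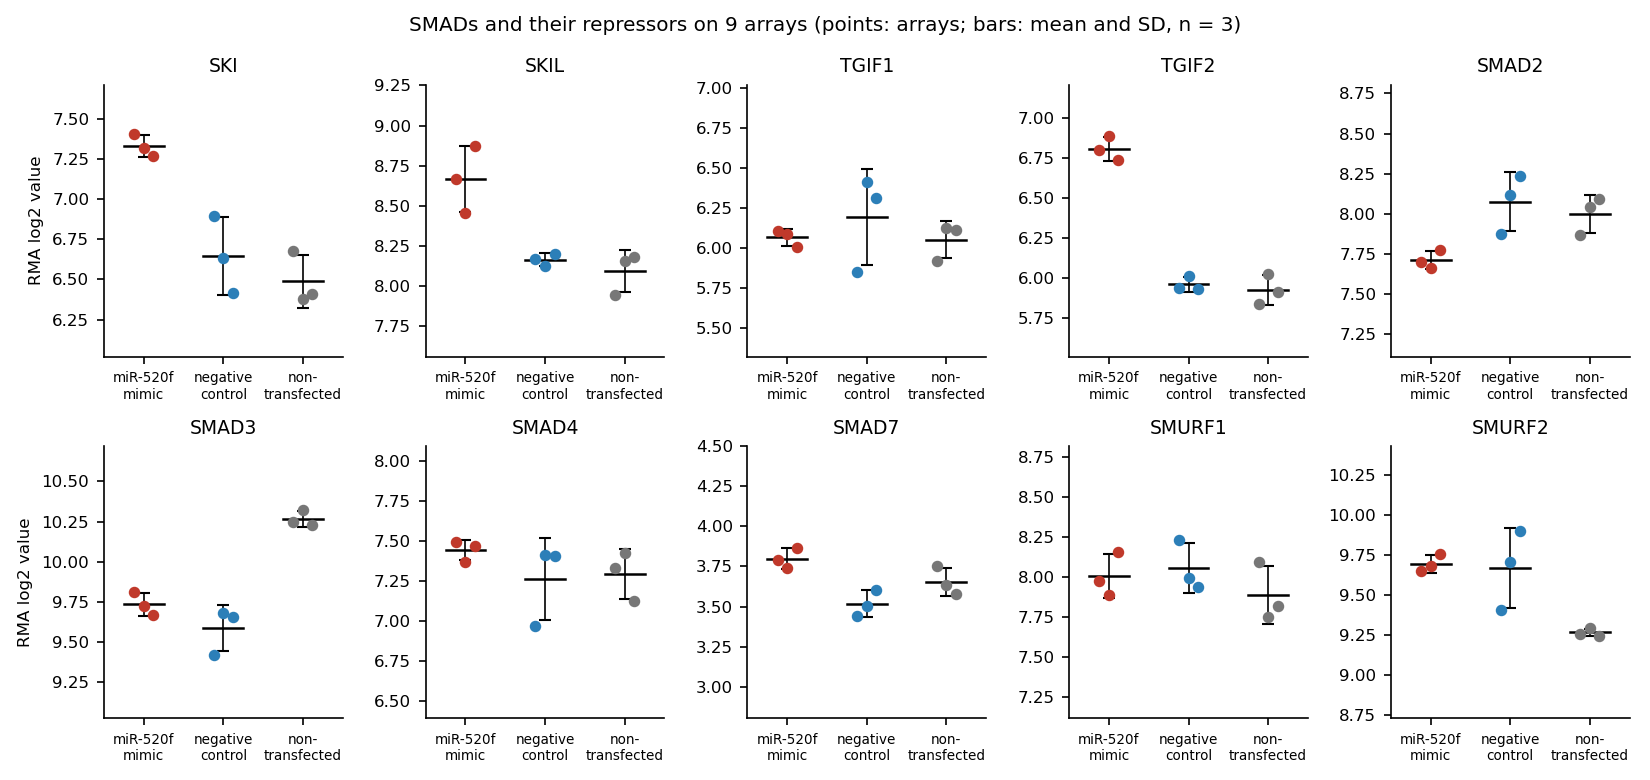
RMA log2 value of each of the 10 members on each array (points), with the group mean and SD (n = 3 each); every panel covers the same span on the log2 scale. All 3 miR-520f arrays stand above all 6 control arrays for SKI, SKIL and TGIF2 and below them for SMAD2, while the values of SMAD3 and SMURF2 separate the non-transfected arrays from the rest.

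Among the repressors, TGIF2, a homeodomain protein that recruits histone deacetylases to SMAD complexes, changed most. Its log2 values were 6.80, 6.89 and 6.74 in miR-520f cells, against 5.94, 6.02 and 5.93 in negative control cells and 5.84, 6.03 and 5.92 in non-transfected cells. The miR-520f arrays lay above every control array, as for 13.2% of all genes (25.4% lay above or below), and the controls overlapped each other. TGIF2 rose by 0.85 (SE 0.08, limma adjusted p = 1.12e-05), a 1.80-fold change, against the negative control and by 0.88 (limma adjusted p = 8.65e-06), a 1.84-fold change, against non-transfected cells. The difference between the controls was 0.036, with a 95% interval of -0.13 to 0.20.

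SKI, the proto-oncoprotein that holds SMAD complexes inactive on DNA, had log2 values of 7.41, 7.32 and 7.27 in miR-520f cells, against 6.90, 6.63 and 6.41 in negative control cells and 6.68, 6.38 and 6.41 in non-transfected cells. The groups of miR-520f and control arrays did not overlap, although the control arrays were spread over a wider range than the miR-520f arrays. SKI rose by 0.69 (SE 0.12, limma adjusted p = 0.00132), or 1.61-fold, against the negative control and by 0.85 (limma adjusted p = 0.000341), or 1.80-fold, against non-transfected cells. Its highest control value was that of negative control replicate 1, and without that array the difference against the negative control was 0.81.

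SKIL, the close relative of SKI and itself a gene that TGF-beta induces, measured 8.67, 8.46 and 8.87 in miR-520f cells, against 8.17, 8.12 and 8.20 in negative control cells and 7.94, 8.15 and 8.18 in non-transfected cells. Again every miR-520f array was above every control array, here with the wider spread on the miR-520f side (SD 0.21, against 0.038 and 0.13, n = 3 each). SKIL rose by 0.50 (SE 0.11, limma adjusted p = 0.00402), or 1.42-fold, against the negative control and by 0.57 (limma adjusted p = 0.00181), or 1.49-fold, against non-transfected cells. SKI, SKIL and TGIF2 kept all of these calls under all 19 alternative settings, with adjusted p between 5.13e-06 and 0.0291 over the 3 genes.

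TGIF1, the paralog of TGIF2, was not called in any of the 3 comparisons. Its log2 values were 6.11, 6.09 and 6.01 in miR-520f cells, against 5.85, 6.41 and 6.31 in negative control cells and 5.92, 6.13 and 6.11 in non-transfected cells. The groups overlapped, with the lowest value of all on negative control replicate 1. The difference was -0.12 against the negative control (95% interval -0.41 to 0.16) and 0.015 against non-transfected cells (-0.27 to 0.30). Without negative control replicate 1, TGIF1 fell by 0.29 against the negative control (limma adjusted p = 0.0253, where its alternatives ran from 0.0253 to 0.953). Without that array TGIF1 was also 0.31 higher in the negative control than in non-transfected cells (limma adjusted p = 0.0349).

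**Figure D2:**
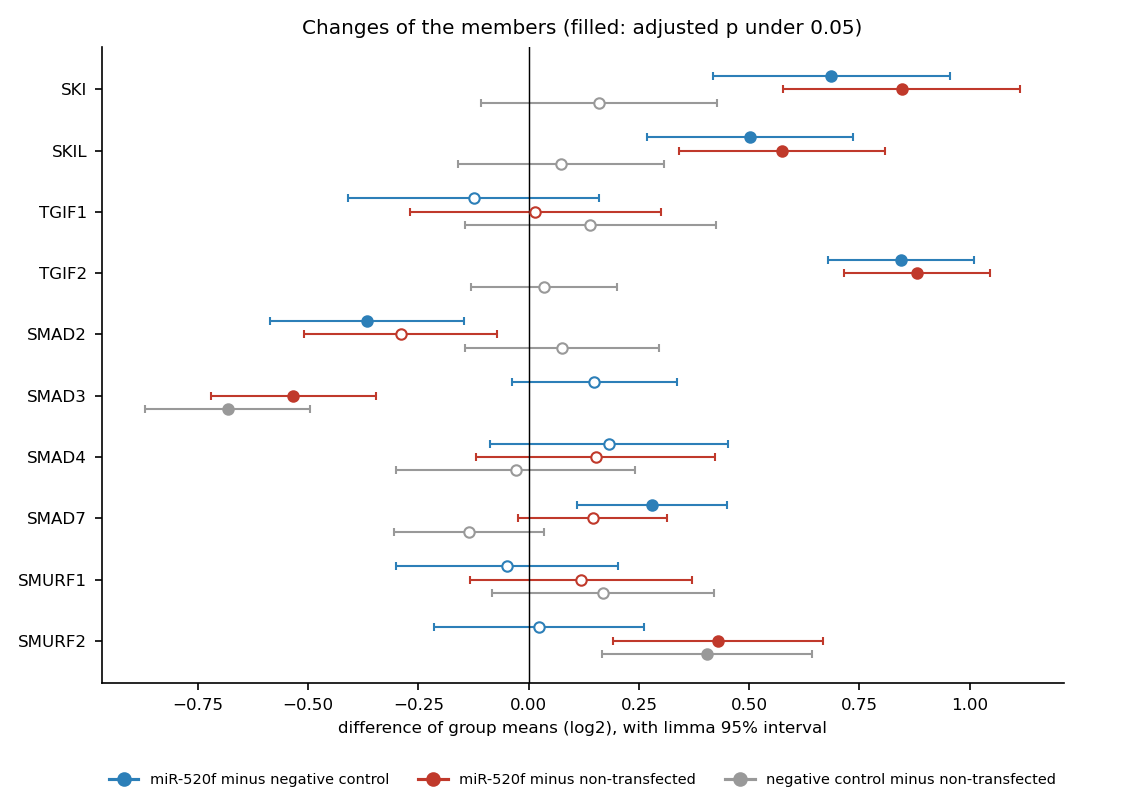
Difference of group means on the log2 scale for each member, with its limma 95% interval; blue is miR-520f minus negative control, red miR-520f minus non-transfected and grey negative control minus non-transfected, and filled points have an adjusted p under 0.05. SKI, SKIL and TGIF2 are filled on the right in blue and red, with TGIF2 at 0.85 and 0.88, and SMAD3 is filled on the left in red and grey at -0.53 and -0.68.

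RefSeq promoter windows (GRCh38.p14, 250 bases before to 50 after a start) matched 9 of the 10 members, in 23 windows, and SKI did not match. CAGAC, the SMAD motif, or GTCTG on the other strand occurred in the SKIL window 107 bases before the start, where 45.3% of 35116 windows hold it, and in neither TGIF2 window. It was in 13 of the 23 windows, those of members not called against both controls included (SMAD3, SMAD7, SMURF1, SMURF2 and TGIF1). TGTCA, a core to which TGIF proteins bind, or TGACA occurred in the window of the downstream TGIF2 start and not in that of SKIL, where 38.9% of windows hold it and 9 of the 23 windows do. GTCTAGAC, a palindromic SMAD site, was in 0 of the 23 windows, where 0.202% hold it. TGACGTCA, the palindrome of ATF and CREB factors, was searched after these sequences had been read; it begins 54 bases before the SKIL start and 7 bases before the downstream TGIF2 start, where 1.85% of windows hold it. A match is a description of letters and not a binding site, and its part in the changes of SKIL and TGIF2 was not tested. The 250 bases before the SKIL start are shown from chr3:170357465-170357714 (plus strand) with GTCTG and TGACGTCA in capitals, and 30 bases around the TGIF2 match from chr20:36573579-36573608 (plus strand) with TGACGTCA in capitals.
SKIL: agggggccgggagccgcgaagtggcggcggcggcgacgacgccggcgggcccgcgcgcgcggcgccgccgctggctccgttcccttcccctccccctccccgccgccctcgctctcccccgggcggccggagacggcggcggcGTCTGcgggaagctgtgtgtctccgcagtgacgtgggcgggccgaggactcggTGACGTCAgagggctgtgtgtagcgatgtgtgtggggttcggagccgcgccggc
TGIF2: gagaggggatcTGACGTCAggccgcgaggt

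SMAD2, a receptor-activated SMAD, had log2 values of 7.70, 7.66 and 7.77 in miR-520f cells, against 7.87, 8.11 and 8.24 in negative control cells and 7.87, 8.04 and 8.09 in non-transfected cells. The 3 miR-520f arrays lay below all 6 control arrays, as for 12.1% of all genes, with a gap to the nearest control smaller than the range of the controls. SMAD2 fell by 0.37 against the negative control (SE 0.10, limma adjusted p = 0.0169), to 0.776 of its level there. Against non-transfected cells the difference of -0.29 narrowly missed the threshold (95% interval -0.51 to -0.071, limma adjusted p = 0.051). The call against the negative control was lost in an unmoderated linear model and without miR-520f replicate 1 or 2 or negative control replicate 2 or 3, with adjusted p from 0.00229 to 0.0611 over its alternatives. Against non-transfected cells the adjusted p ran from 0.0126 to 0.172, and SMAD2 was called under 8 of 19 alternatives. Those were a further quantile normalization, a fit without the dimmest genes, a fit of these 2 groups alone, both fits with the replicate number as a block, and fits without negative control replicate 1, negative control replicate 3 or non-transfected replicate 1.

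A dimmer second probe set of SMAD2 did not give the same picture. It measured 5.44, 5.61 and 5.61 in miR-520f cells, against 5.97, 5.91 and 5.84 in negative control cells and 5.28, 5.53 and 5.13 in non-transfected cells. Here the miR-520f arrays were below the negative control arrays and overlapped the non-transfected ones. With p-values adjusted over all 22011 probe sets, the difference was -0.36 against the negative control (limma adjusted p = 0.0402) and 0.24 against non-transfected cells (limma adjusted p = 0.174), and between the controls it was 0.60, higher in the negative control (limma adjusted p = 0.0082). The direction of SMAD2 against non-transfected cells therefore differed between its probe sets, while that against the negative control was the same in both.

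SMAD3, the other receptor-activated SMAD, binds DNA directly, and its result depended on the control. Its log2 values were 9.81, 9.72 and 9.67 in miR-520f cells, against 9.42, 9.68 and 9.65 in negative control cells and 10.24, 10.32 and 10.23 in non-transfected cells. The arrays of both transfected groups lay below every non-transfected array and, apart from negative control replicate 1, within a narrow range. SMAD3 fell by 0.53 against non-transfected cells (SE 0.08, limma adjusted p = 0.000666), to 0.691 of its level there, and differed by 0.15 from the negative control (95% interval -0.037 to 0.34, limma adjusted p = 0.248). The negative control mimic was 0.68 below non-transfected cells (limma adjusted p = 0.000393), which is also the test of the difference between the miR-520f comparisons. Under all 19 alternatives the SMAD3 calls against non-transfected cells held in both transfected groups.

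SMAD4, the common partner of the receptor-activated SMADs, was measured at 7.49, 7.37 and 7.47 in miR-520f cells, against 6.97, 7.41 and 7.41 in negative control cells and 7.33, 7.42 and 7.12 in non-transfected cells. The miR-520f arrays overlapped the upper control arrays, and negative control replicate 1 was the lowest. The differences were 0.18 against the negative control (95% interval -0.089 to 0.45) and 0.15 against non-transfected cells (-0.12 to 0.42), neither of them called (limma adjusted p = 0.344 and 0.477). Without negative control replicate 1 the difference against the negative control was 0.034. A dim probe set shared by SMAD4 and its neighbour ELAC1 lay between 3.49 and 3.77 on all arrays and was not called in any comparison.

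SMAD7, the inhibitory SMAD that TGF-beta induces as feedback, was dim, with a mean at the 36.2 percentile of all genes. It measured 3.79, 3.74 and 3.87 in miR-520f cells, against 3.44, 3.51 and 3.61 in negative control cells and 3.75, 3.63 and 3.58 in non-transfected cells. The miR-520f arrays were above all negative control arrays and overlapped the non-transfected arrays by a single value. SMAD7 rose by 0.28 against the negative control (SE 0.08, limma adjusted p = 0.0182), or 1.21-fold, and differed by 0.14 from non-transfected cells (95% interval -0.025 to 0.31, limma adjusted p = 0.227). The call was lost without miR-520f replicate 1 or 3 and without negative control replicate 2, with adjusted p from 0.0153 to 0.0694 over its alternatives. RMA compresses differences of dim probe sets.

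The SMURF ligases did not separate miR-520f from the negative control. SMURF2 measured 9.65, 9.68 and 9.76 in miR-520f cells, against 9.41, 9.71 and 9.90 in negative control cells and 9.26, 9.29 and 9.25 in non-transfected cells. Every array of both transfected groups was above the non-transfected arrays, and the negative control arrays spanned the miR-520f arrays. SMURF2 rose by 0.43 against non-transfected cells (SE 0.11, limma adjusted p = 0.0114), or 1.35-fold, and the negative control was higher by 0.40 (limma adjusted p = 0.0273), or 1.32-fold. Against the negative control the miR-520f difference was 0.024 (95% interval -0.21 to 0.26). The rise against non-transfected cells was lost in a linear model without limma's moderation (adjusted p = 0.0537, the highest of its alternatives, which began at 0.000803). The call between the controls was lost under 8 of 19 alternatives, among them the fits without negative control replicate 2 or 3 and those without any 1 non-transfected array (adjusted p from 0.0015 to 0.105).

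SMURF1 had log2 values of 7.97, 7.89 and 8.16 in miR-520f cells, against 8.23, 7.99 and 7.94 in negative control cells and 8.09, 7.75 and 7.82 in non-transfected cells. All 3 groups overlapped. The differences were -0.050 against the negative control (95% interval -0.30 to 0.20) and 0.12 against non-transfected cells (-0.13 to 0.37), and SMURF1 was called under none of the settings run. A probe set shared by SMURF1 and TRRAP measured 7.76, 7.86 and 8.03 in miR-520f cells, against 7.87, 7.86 and 7.74 in negative control cells and 7.61, 7.58 and 7.47 in non-transfected cells. On that probe set miR-520f was 0.33 above non-transfected cells (limma adjusted p = 0.0233 over all probe sets) and 0.060 above the negative control (limma adjusted p = 0.716), and which of the 2 genes it reports cannot be told apart.

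**Figure D3:**
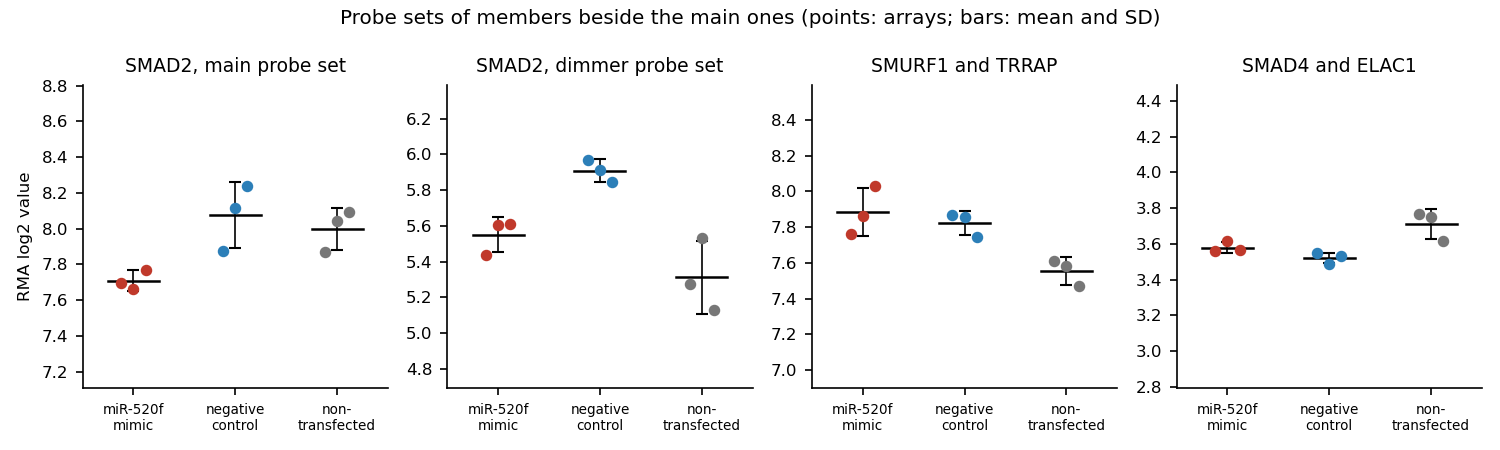
RMA log2 values by array of the main SMAD2 probe set, its dimmer probe set and the probe sets that name SMURF1 with TRRAP and SMAD4 with ELAC1 (points, with group mean and SD, n = 3 each). The dimmer SMAD2 probe set is highest in negative control cells, with a mean of 5.91, against 5.55 in miR-520f and 5.31 in non-transfected cells.

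Paralogs were then compared for unequal change, as the difference between their log2 values on each array. For 4 pairs and 3 comparisons the exact two-sided permutation test over 3 against 3 arrays cannot go below 0.1, and after Benjamini-Hochberg adjustment over the 12 tests the lowest value was 0.2. TGIF2 relative to TGIF1 was 0.97 higher with miR-520f than in the negative control and 0.87 higher than in non-transfected cells, without overlap of the arrays (exact permutation p = 0.1 in each). SKIL and SKI changed by more similar amounts, with SKIL 0.18 below SKI in its change against the negative control (exact permutation p = 0.4) and 0.27 below it against non-transfected cells (exact permutation p = 0.2). The arrays of SKIL and SKI overlapped in both cases. SMAD3 relative to SMAD2 was 0.52 higher with miR-520f than in the negative control and 0.24 lower than in non-transfected cells, without overlap in either (exact permutation p = 0.1 in each). This pair used the main SMAD2 probe set. It was not computed on the dimmer SMAD2 probe set, which was 0.24 higher with miR-520f than in non-transfected cells. SMURF2 relative to SMURF1 differed by 0.074 from the negative control (exact permutation p = 0.9) and by 0.31 from non-transfected cells (exact permutation p = 0.1).

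**Figure D4:**
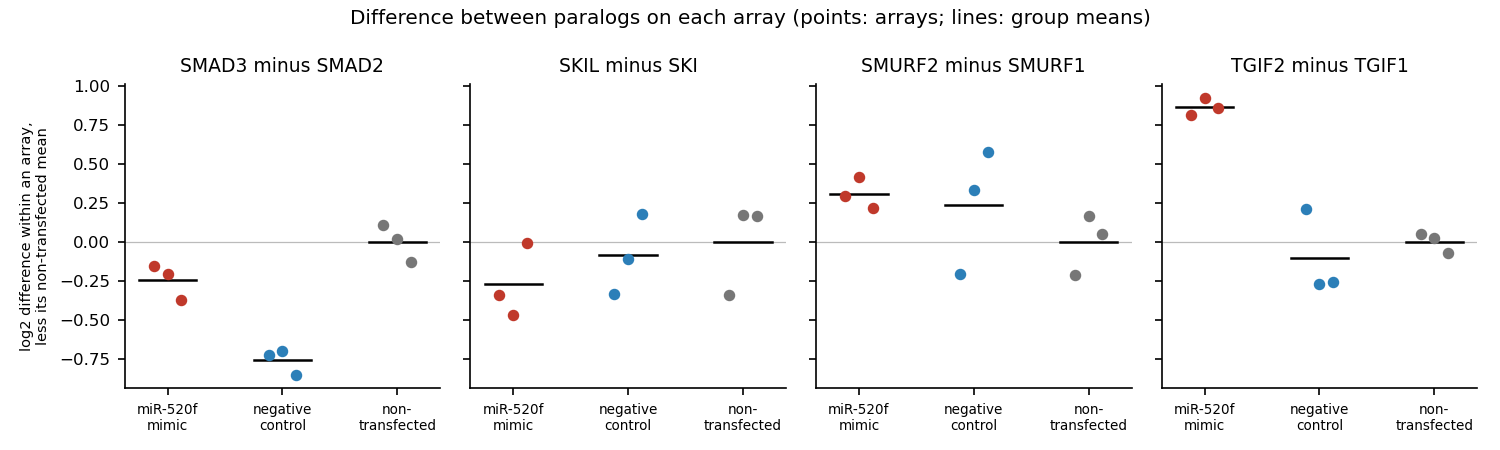
Difference between the log2 values of paralogs on each array, less its mean over the non-transfected arrays (points are arrays, lines are group means). TGIF2 minus TGIF1 is 0.87 in miR-520f cells on this scale, and SMAD3 minus SMAD2 is -0.24 in miR-520f and -0.76 in negative control cells. SMAD2 is read from its main probe set only.

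Other genes of the SMAD pathway were read from 7 lists of 93 genes, of which 78 had a probe set of their own. Against both controls 10 rose and 12 fell, beside the 9.37% and 8.61% of all genes. The lists were chosen with earlier results of these data known, so the counts do not test an excess over such shares. Against the negative control 13 rose and 16 fell, where 15.4% of all genes rose and 12.6% fell. Against non-transfected cells 17 rose and 18 fell, where 14.5% of all genes rose and 13.1% fell. The median log2 difference of the 78 genes was -0.021 against the negative control and -0.0057 against non-transfected cells.

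Of 4 other SMADs, 1 rose and 0 fell against both controls, where 9.37% of all genes rose and 8.61% fell. SMAD5, which carries signals of bone morphogenetic proteins, rose (0.51 against the negative control and 0.38 against non-transfected cells). SMAD1, SMAD6 and SMAD9 were not called in either comparison. Pairs of log2 differences below give the negative control comparison and then the non-transfected one. Among 12 measured ubiquitin ligases and deubiquitinases, 1 rose and 1 fell against both controls, where 9.37% of all genes rose and 8.61% fell. NEDD4L, a ligase for activated SMAD2 and SMAD3, rose (0.64 and 0.61), and USP4, a deubiquitinase of TGF-beta receptors, fell (-0.71 and -0.50). WWP1, a relative of the SMURFs, fell against the negative control (-0.33) and rose against non-transfected cells (0.38), and it was 0.71 higher in the negative control than in non-transfected cells (limma adjusted p = 0.00135). The anchor ZFYVE9, which presents SMAD2 and SMAD3 to the receptors, had the same pattern (-0.34 and 0.57, with the controls apart by 0.91, limma adjusted p = 0.000125). WWP1 and ZFYVE9 were named after their values were seen, and 0.436% of all genes were called with opposite signs in the miR-520f comparisons. Without miR-520f replicate 1 both WWP1 calls were lost. The WWP1 call against the negative control was also lost without miR-520f replicate 2, negative control replicate 1 or any 1 non-transfected array, and that against non-transfected cells without miR-520f replicate 3 or non-transfected replicate 2 or 3. With the settings that left out no array counted too, the WWP1 calls were lost under 10 of 19 alternatives against the negative control (adjusted p up to 0.155, limma) and under 6 of 19 against non-transfected cells (adjusted p up to 0.0981, limma). ZFYVE9 lost its call against the negative control without miR-520f replicate 1 or 2 or negative control replicate 2, and in the unmoderated model.

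Of 8 phosphatases and transport factors, 2 rose and 0 fell against both controls, where 9.37% of all genes rose and 8.61% fell. PPM1A, a phosphatase described for SMAD2 and SMAD3, rose (0.50 and 0.31), as did the importin KPNB1 (0.22 and 0.37). The other 6 were not called against both controls. PPM1A lost its call against non-transfected cells without miR-520f replicate 1 or 2 or non-transfected replicate 1 or 2, and with quantile normalization, the unmoderated model or an intensity trend. KPNB1 lost its call against the negative control without any 1 miR-520f or negative control array and without non-transfected replicate 2, and with dim genes left out. Of 9 genes listed as corepressors, 1 rose and 1 fell against both controls, where 9.37% and 8.61% of all genes did so. HDAC2, a histone deacetylase recruited by SKI and TGIF proteins, rose (0.50 and 0.39). ZEB1, a repressor of epithelial genes that binds SMADs, fell (-1.12 and -1.08), and its effect on SMAD output was not tested. HDAC2 lost its call against non-transfected cells without miR-520f replicate 3 or non-transfected replicate 1, and in the unmoderated model. The other 7, SIN3A, HDAC1, CTBP1, CTBP2, MECOM, ZEB2 and DACH1, were not called in either comparison, with differences from -0.13 to 0.077 against the negative control and from -0.25 to 0.20 against non-transfected cells. MECOM, ZEB2 and DACH1 were dim, with means at the 13.5 to 22.2 percentile of all genes, which limits what they can show.

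Of 16 measured SMAD partners and coactivators, 5 fell and 0 rose against both controls by limma, where 8.61% and 9.37% of all genes did so. The list is 1 of the 7 that were read. In it 1 other gene (ATF3) was higher in both comparisons at an unadjusted p under 0.05. SP1 (-0.53 and -0.25) and KAT2A (-0.22 and -0.38) were lower in both at that threshold, and each was called in only 1 comparison. The partner JUN fell (-0.90 and -0.61), as did RUNX2 (-1.16 and -0.47), MED15, the Mediator subunit that SMADs contact (-0.53 and -0.72), and ATF2 (-0.49 and -0.46). RUNX2 was also 0.69 higher in the negative control than in non-transfected cells (limma adjusted p = 0.000247). The fifth was RUNX1 (-0.34 and -0.39). ATF3, a stress-inducible SMAD3 partner named after its values were seen, was 0.28 higher than in the negative control (limma adjusted p = 0.0935) and rose against non-transfected cells by 0.77 (limma adjusted p = 0.000369). For ATF3 the negative control was itself 0.49 above non-transfected cells (limma adjusted p = 0.0126), a call lost in the unmoderated model. Under 2 of 19 alternatives ATF3 was called against the negative control too, so that 1 partner then rose against both controls. Those were the fit without negative control replicate 1 (0.35, limma adjusted p = 0.0476) and the fit with the replicate number as a block (limma adjusted p = 0.0264). The median of this list was -0.22 and -0.20. Of 7 feedback inhibitors upstream of the SMADs, 2 rose and 1 fell against both controls, where 9.37% of all genes rose and 8.61% fell. PMEPA1, which sequesters SMAD2 and SMAD3 and is induced by TGF-beta, fell (-1.27 and -1.46). STRAP, which binds SMAD7 and the receptors, rose (1.04 and 0.72), although its call against non-transfected cells was lost in the unmoderated model and its difference against the negative control was 0.77 without negative control replicate 1. DAB2, an endocytic adaptor that binds SMADs, rose as well (0.55 and 0.40). BAMBI, LDLRAD4, PPP1R15A and FKBP1A were not called in either comparison, and BAMBI and LDLRAD4 were dim. The median of these 7 genes was 0.00095 and 0.013. Among 22 genes induced or repressed through SMADs, 3 rose and 4 fell against both controls, where 9.37% of all genes rose and 8.61% fell. LTBP2 (-1.77 and -2.13), TGFBI (-1.59 and -1.64) and the cell cycle inhibitor CDKN1A (-0.83 and -0.89) fell, and HMGA2, a chromatin protein that TGF-beta induces and that let-7 microRNAs restrain, rose (1.36 and 1.30). The remaining calls against both controls were KLF10 (0.43 and 0.70), CCN2 (0.61 and 0.41) and TGM2 (-0.83 and -1.09). Compared with non-transfected cells, the negative control was 0.27 higher for KLF10 (limma adjusted p = 0.0392) and differed by -0.35 for LTBP2 (limma adjusted p = 0.0459). RUNX1, SP1, KAT2A, KLF10, CCN2 and TGM2 were named after their values were seen and were not recomputed under the alternatives. The median of these 22 genes was -0.057 and -0.12.

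**Figure D5:**
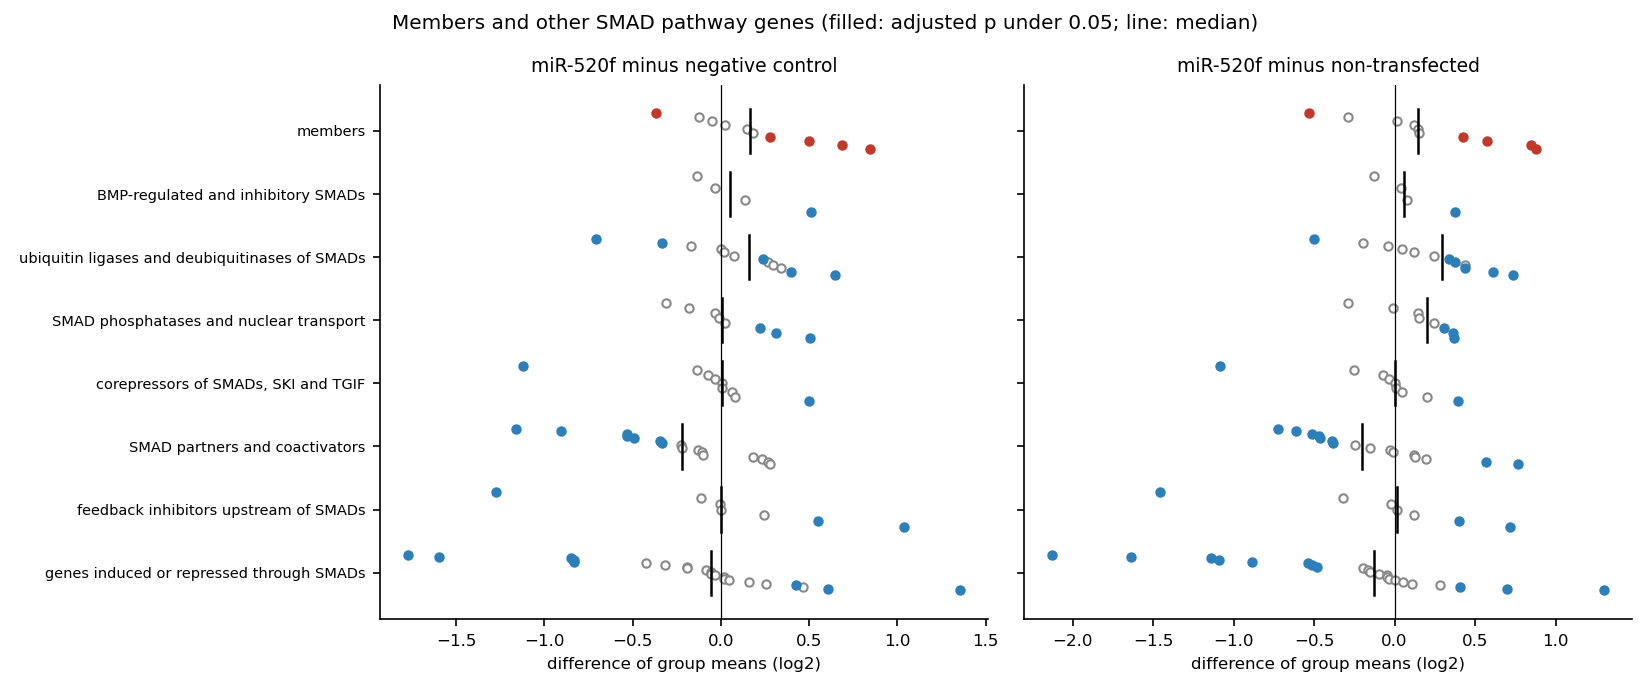
Log2 difference of each member and each listed pathway gene, miR-520f minus negative control on the left and miR-520f minus non-transfected on the right; filled points have an adjusted p under 0.05 and the line is the median of a list. The median of the members is 0.17 and 0.15, and that of the SMAD partners and coactivators is -0.22 and -0.20.

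The genes closest in pattern to the members that rose against both controls were found by the root mean square difference of gene-centred log2 values over the 9 arrays. PITHD1 (0.0664) and LRRC47 (0.0784) were nearest to SKI. EPB41L2, a membrane skeleton protein (0.0566), and AMD1, an enzyme of polyamine synthesis (0.0705), were nearest to SKIL. SLC7A3, a transporter of cationic amino acids (0.0769), and ATP8B2, a lipid flippase (0.0818), were nearest to TGIF2. SLC7A3 measured 2.80 to 2.92 on the control arrays, near the lower end of the scale, which limits its comparison with TGIF2. The log2 differences of the nearest genes, whose sign this choice fixes, ran from 0.43 for EPB41L2 against the negative control to 0.94 for LRRC47 against non-transfected cells.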

How the data were processed

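The authors deposited log2 values for 22011 probe sets on 9 arrays, named for RMA and Partek 6.6 with build hg18 per the submitters' processing notes; their settings and any filter are not given in the sources used here. RMA corrects background, brings arrays to a common distribution and summarises probes. Of the probe sets, 14432 had 1 gene symbol in the platform annotation, 2408 had several and 5171 none; Entrez identifiers matched 14404 to the RefSeq table (GRCh38.p14), which changed 0 symbols. With the probe set of highest mean for each gene, 14232 genes were tested. Groups came from the sample titles. limma 3.58.1 (R 4.3.3) fitted 1 mean per group over 9 arrays with 6 residual degrees of freedom, moderated standard errors and Benjamini-Hochberg adjustment. The fit was tested on simulated data. Named genes were all 10 members, up to 4 genes of each pathway list called against both controls with the largest smaller change, and the 2 nearest genes of each member so called. Members and lists were chosen with earlier results of these data known. Alternatives covered normalization, centring, dim genes, probe set choice, moderation, samples in the fit, the replicate number as a block and each array left out; those for the counts against both controls and the pathway genes were chosen after the data were seen.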

Additional observations from a re-analysis of the deposited data

How the results depend on the processing

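SKI, SKIL and TGIF2 against both controls and SMAD3 against non-transfected cells were called under all 19 alternatives. Members called against both controls numbered 3 or 4 under the 18 alternatives that fit both comparisons. Members called with arrays left out numbered 3 to 6 against the negative control and 1 to 3 between the controls, and 1 between the controls with all probe sets, an unmoderated linear model or only the 2 groups compared. Genes called between the controls numbered 1287 in the unmoderated model and 1394 to 2181 with arrays left out, against 2174, and pathway genes 7 and 9 to 13, against 14. After median centring 56.3% of the genes called between the controls were higher in the negative control, against 45.8%, and between miR-520f and non-transfected cells 61.7%, against 52.5% (49.0% without non-transfected replicate 3). Uncalled differences changed sign for SMURF2 against the negative control (-0.018 after quantile normalization, -0.11 to 0.14 with arrays left out), TGIF1 against non-transfected cells (-0.017, and -0.052 to 0.052), SMURF1 against the negative control (-0.13 to 0.039) and SMAD2 against non-transfected cells (0.24 on its dimmer probe set). Between the controls they did so for SMAD4 (0.012 after centring, -0.11 to 0.12 with arrays left out), SMAD2 (-0.0054 to 0.18), SKIL (-0.0028 to 0.12) and TGIF2 (-0.0079 to 0.085). SKIL minus SKI between the controls ran from -0.26 to 0.036, and SMURF2 minus SMURF1 against the negative control from -0.15 to 0.25. The cause was not tested. Same-numbered arrays were not taken as paired (r from -0.026 to 0.205, above 0.1 in 4 of 9 pairs and positive in 7, where 12 of 18 other pairs were negative, and 3 of 9 arrays were closest to their own number); with the replicate number as a block 4159, 4060 and 2297 genes were called against the negative control, against non-transfected cells and between the controls, and SMAD2 against non-transfected cells had an adjusted p of 0.0228 (limma). Signal near the lower end of the scale limits what SMAD7 can show.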
